A study of Mus musculus with 12 samples.

Results

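The unfolded protein response and the chaperones of the endoplasmic reticulum (ER) were followed through 34 genes, of 18194 genes measured. The genes were taken from a list of symbols that was chosen with earlier results of these data known. Counts set beside those over all genes therefore describe the list. By role they were 15 chaperones and folding enzymes, 7 genes of ER-associated degradation, 4 genes that encode the stress sensors and the transcription factor Xbp1, 6 genes of the PERK-ATF4 arm and 2 genes of the translocon. All 34 were measured, by 80 probe sets (groups of short probes on the array that report one transcript), and each was read from its brightest probe set that names no other gene. No gene was left out for a low value. The mean signal lay between the 48.6th percentile of all genes for Trib3 and the 99.4th percentile for Xbp1.

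Proteins that are secreted or built into membranes enter the ER through the translocon, are folded there by chaperones such as BiP (Hspa5), and are returned to the cytosol and degraded when they fail to fold. The sensors IRE1 (Ern1), PERK (Eif2ak3) and ATF6 respond to unfolded proteins. IRE1 splices the Xbp1 mRNA, and spliced XBP1 and cleaved ATF6 bind ER stress elements in the promoters of chaperone genes, while PERK slows translation and raises ATF4, which drives genes of amino acid supply such as Asns. In obese mice, markers of ER stress are known to be raised in fat and liver.

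Total RNA from mice was hybridised to 12 Affymetrix arrays, with 6 groups of 2 arrays named a and b. The first experiment held Smad3-/- mice on a high fat diet, wild type (WT) mice on a high fat diet, Smad3-/- mice on a regular diet and WT mice on a regular diet, and the labels give the high fat diet as 55% high fat. The Smad3-/- mice carry a targeted disruption of Smad3, which passes the TGF-beta signal to the nucleus, and their background mixes C57BL/6 with NIH Black Swiss females, while the WT mice were C57BL/6, so genotype and strain background cannot be told apart. The second experiment held diet-induced obese C57J/B6 mice given an antibody against TGF-beta (1D11) or the control IgG (13C4) by intraperitoneal injection, 3 times weekly over 8 weeks. The labels name no tissue and do not say whether arrays a and b came from different animals. The p-values therefore reflect only how far arrays within groups differ, and that spread could be technical. The spread was pooled over the 6 groups and drawn toward that of genes of like signal. The 2 experiments differed in array medians (6.32 to 6.39 in the first, 6.03 to 6.04 in the second), and signal was compared within each experiment only.

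Values are log2 RMA signal, and a gene was called when the adjusted p of limma over all 18194 genes was under 0.05. With 2 arrays a group, groups also stood apart in genes that were not called. Groups that did not overlap are therefore a description and no further test. Smad3 itself gave 9.14 and 9.03 on Smad3-/- arrays and 8.88 and 8.95 on WT arrays under the high fat diet, and 9.10 and 9.17 against 8.86 and 8.94 under the regular diet. Whether its probe sets lie inside the disrupted stretch is not stated in the sources used here, so these values do not check the genotype. Fat cell markers were high on all 12 arrays, with a mean of the 10 measured genes between 11.12 and 12.65. Groups of arrays stood apart in markers of other cell types. The mean of 12 epididymal genes was 10.72 and 10.72 on Smad3-/- arrays and 5.61 and 5.51 on WT arrays under the regular diet, and the mean of 8 smooth muscle and pericyte genes was 8.89 and 8.84 against 11.53 and 11.57 on the same arrays. The mean of 14 skeletal muscle genes was 10.48 and 10.61 on Smad3-/- arrays and 6.04 and 5.86 on WT arrays under the high fat diet, and 10.82 and 10.84 with the antibody against 5.72 and 5.67 with IgG. The mean of 10 brown or beige fat genes was 9.03 and 9.07 in Smad3-/- against 6.54 and 6.49 in WT mice on the high fat diet, 9.22 and 9.08 against 6.65 and 6.62 on the regular diet, and 9.46 and 9.53 with the antibody against 6.62 and 6.65 with IgG. In each case both arrays of a group stood together, so no comparison of these groups can be made without them. In such bulk samples, fewer cells of a type and less RNA per cell cannot be told apart.

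The promoters of 30 of the 34 genes were found in the RefSeq table (build GRCm38.p6, windows of 250 bases before to 50 bases after a gene's start), and Manf, Hyou1, Derl1 and Atf6 were not matched there. Both strands were searched for the ER stress element (ERSE, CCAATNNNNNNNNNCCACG), its variant ERSE-II (ATTGGNCCACG), the unfolded protein response element (UPRE, TGACGTGG) and the amino acid response element (CARE, TGATGNAA). ERSE stood in 9 of the 30 genes, of which 7 were among the 13 chaperones with a window, against 0.137% of the 27025 genes in the table. ERSE-II stood in Dnajb11 and Herpud1, against 0.0444% of genes, and shares its CCACG end with ERSE. CARE stood in Asns, Chac1, Trib3 and Herpud1, against 4.51% of genes, and UPRE in none of the 30, against 0.714% of genes. The genes were listed for this response, and ER stress elements are known from chaperone promoters, so the counts describe the list only. A match describes the letters in the window and does not show that a factor binds there. The ERSE matches are shown because most belong to chaperones, the role with the most calls, each in the direction of the motif with 6 bases on either side and with the fixed motif letters in capitals.
Hspa5: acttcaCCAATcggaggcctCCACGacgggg
Pdia6: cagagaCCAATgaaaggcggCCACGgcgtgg
Creld2: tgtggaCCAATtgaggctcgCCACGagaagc
Calr: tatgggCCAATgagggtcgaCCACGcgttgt
Canx: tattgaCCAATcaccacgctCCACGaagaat
Dnajc3: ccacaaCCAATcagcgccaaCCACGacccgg
Hsp90b1 proximal: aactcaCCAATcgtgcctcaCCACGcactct
Hsp90b1 distal: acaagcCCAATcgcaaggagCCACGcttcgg
Derl3: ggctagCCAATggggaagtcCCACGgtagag
Syvn1: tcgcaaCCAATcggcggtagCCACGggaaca
The sites lie at chr2:34772019-34772049 (plus strand) for Hspa5, chr12:17266485-17266515 (plus) for Pdia6, chr15:88819514-88819544 (minus) for Creld2, chr8:84847069-84847099 (plus) for Calr, chr11:50325794-50325824 (minus) for Canx and chr14:118937821-118937851 (plus) for Dnajc3. Those of Hsp90b1 lie at chr10:86705527-86705557 (plus) and chr10:86705632-86705662 (minus), that of Derl3 at chr10:75893236-75893266 (minus) and that of Syvn1 at chr19:6046526-6046556 (plus). All 10 lie upstream of their gene's start, the nearest beginning 44 bases (Syvn1) and the farthest 212 bases (Hsp90b1 distal) before it. The matches of the other motifs are shown because 2 of them, Asns and Chac1, belong to genes that rose with the antibody.
Asns CARE: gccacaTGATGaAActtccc
Chac1 CARE: caggagTGATGcAAcggcag
Trib3 CARE: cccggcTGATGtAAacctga
Herpud1 CARE: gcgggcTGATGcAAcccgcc
Herpud1 ERSE-II: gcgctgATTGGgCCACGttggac
Dnajb11 ERSE-II: gcggcgATTGGcCCACGcctggc
They lie at chr6:7693219-7693238 (minus), chr2:119351043-119351062 (minus), chr2:152344033-152344052 (plus), chr8:94386311-94386330 (minus), chr8:94386371-94386393 (plus) and chr16:22857846-22857868 (plus), in that order. Those of Trib3 and Dnajb11 begin 15 and 8 bases after the start of the gene and the others before it.

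For the genes whose values are followed most closely below, the 250 bases upstream of the start are given in the direction of the gene, with the same letters in capitals: Hspa5, the chaperone most often used as a marker of ER stress (chr2:34771840-34772089, plus strand), Derl3, the gene with the largest difference of the list on the regular diet (chr10:75893148-75893397, plus), and Asns, which moved opposite to the chaperones (chr6:7693210-7693459, minus).
Hspa5 upstream: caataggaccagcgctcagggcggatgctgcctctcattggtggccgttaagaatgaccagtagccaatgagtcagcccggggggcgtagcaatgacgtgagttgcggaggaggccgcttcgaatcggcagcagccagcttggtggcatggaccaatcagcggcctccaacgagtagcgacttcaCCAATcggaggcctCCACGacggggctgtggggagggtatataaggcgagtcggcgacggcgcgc
Derl3 upstream: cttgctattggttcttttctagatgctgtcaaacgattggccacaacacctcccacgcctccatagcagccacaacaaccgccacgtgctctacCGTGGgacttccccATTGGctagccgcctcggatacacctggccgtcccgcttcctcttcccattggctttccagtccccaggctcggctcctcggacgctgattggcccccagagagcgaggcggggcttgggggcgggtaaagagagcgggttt
Asns upstream: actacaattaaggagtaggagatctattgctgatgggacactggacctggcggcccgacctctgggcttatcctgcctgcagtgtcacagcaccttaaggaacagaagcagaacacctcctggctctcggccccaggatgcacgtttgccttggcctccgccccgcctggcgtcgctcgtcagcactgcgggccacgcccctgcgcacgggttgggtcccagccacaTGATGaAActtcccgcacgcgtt
Hspa5 and Derl3 each hold 1 exact ERSE in this window, and Asns holds 1 exact CARE.

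Over the whole list, Smad3-/- arrays under the regular diet were higher than WT arrays in 16 of 34 genes and lower in 7, where 8.4% of all genes tested were called higher and 15.6% lower. The median log2 difference was 0.25 over the list and 0.04 over all genes. Under the high fat diet the direction of the list was the other way, with 1 gene higher and 13 lower in Smad3-/- (4.74% and 6.05% of all genes) and a median of -0.24 against -0.01 over all genes. The high fat diet raised 9 genes and lowered 4 in WT mice (4.69% and 6.11% of all genes, median 0.14 against 0.02), and raised 3 and lowered 16 in Smad3-/- mice (11.5% and 5.82% of all genes, median -0.29 against -0.00). The effect of the diet itself differed between the genotypes in 22 of 34 genes by the interaction term of the same fit, lower in Smad3-/- in 16 and higher in 6 (6.77% and 12% of all genes). With the antibody, 4 genes rose and 10 fell (11.7% and 12.6% of all genes, median -0.11 against -0.00). Comparisons that share a group share its arrays and are not independent of each other. In the fits that left out each array in turn, 18 of 23, 8 of 14, 6 of 13, 16 of 19, 20 of 22 and 7 of 14 of these calls held every time, in the order given. The count on the high fat diet was 8 without Smad3-/- high fat array a and 9 without WT high fat array b, and that with the antibody was 9 without IgG array a. The plot of differences by gene shows the 3 comparisons of a perturbed signal with its control.

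**Figure D1:**
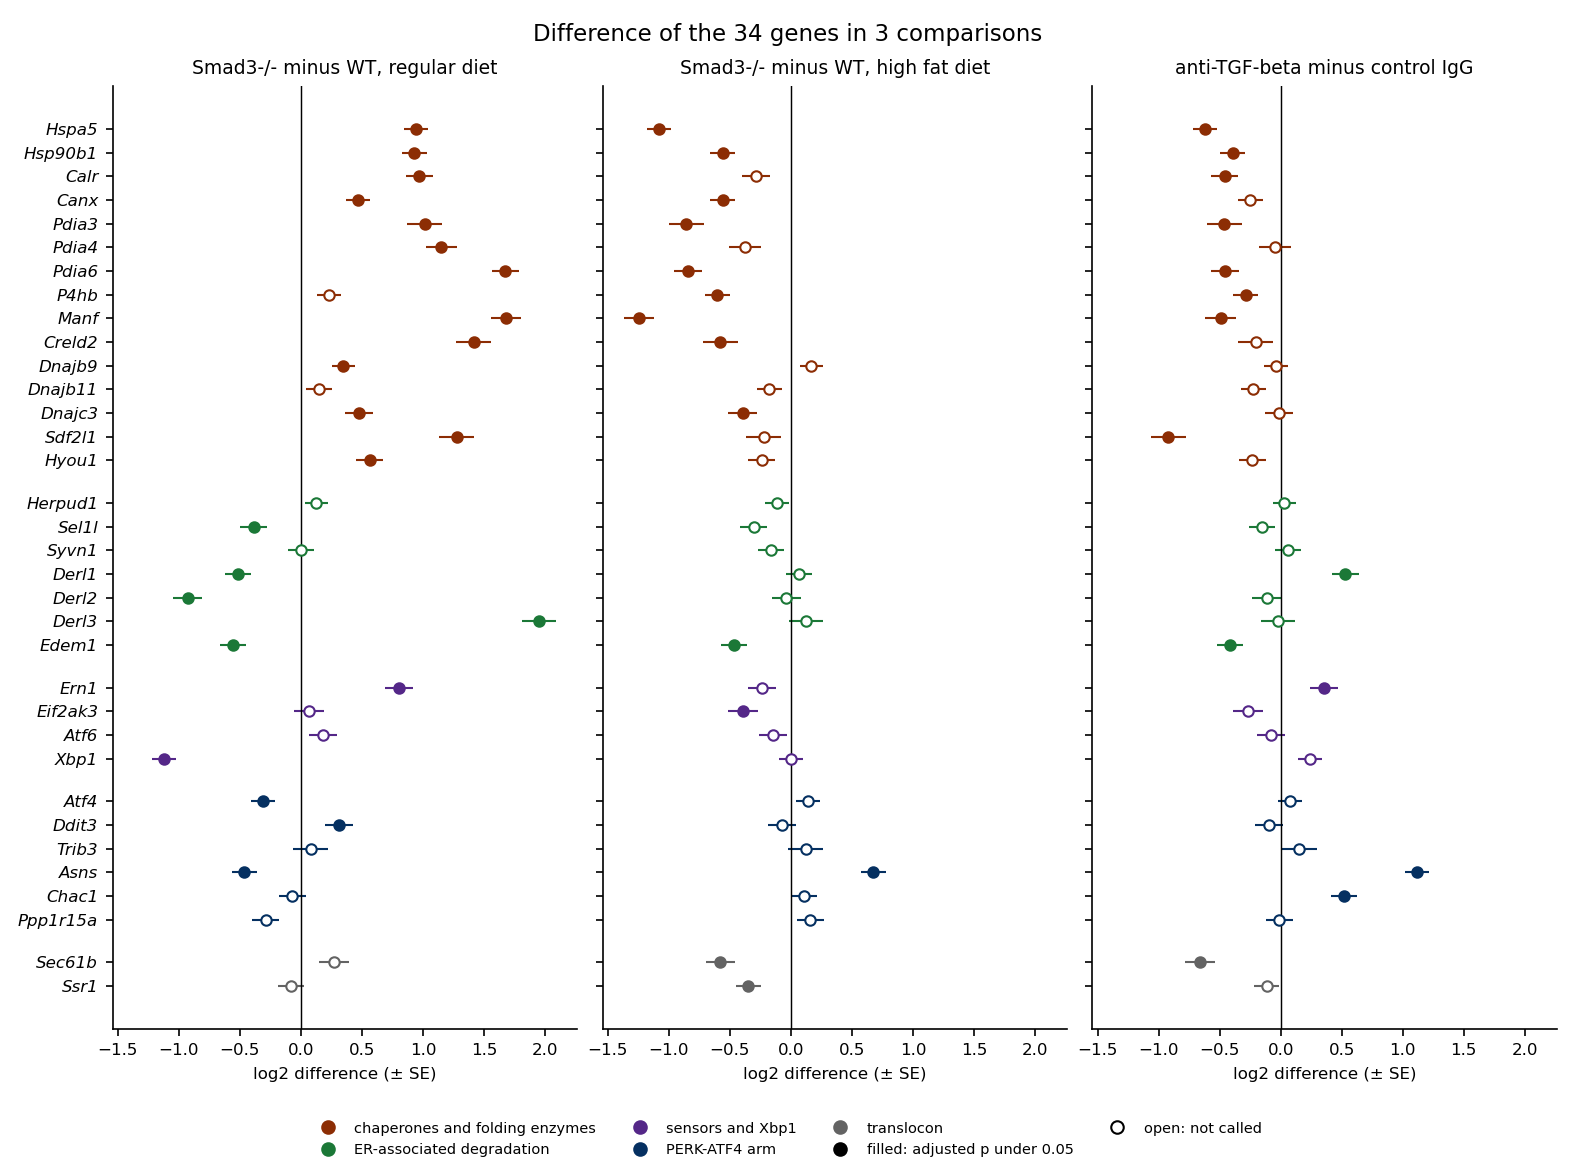
Log2 difference (x axis) with its standard error for each of the 34 genes (y axis, grouped by role), in Smad3-/- minus WT under the regular diet, Smad3-/- minus WT under the high fat diet, and antibody against TGF-beta minus control IgG. Filled points passed limma's adjusted p of 0.05. The 15 chaperones lie right of 0 in the first panel and, apart from Dnajb9 in the second, left of 0 in the others.

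Of the chaperones and folding enzymes, 13 of 15 were higher in Smad3-/- than in WT mice under the regular diet and none was lower (8.4% and 15.6% of all genes). The median difference of the 15 was 0.94. Hspa5, the BiP chaperone that holds unfolded chains and the sensors, gave 11.55 and 11.50 on Smad3-/- arrays and 10.57 and 10.60 on WT arrays, a difference of 0.94 ± 0.10 (SE, adjusted p = 1.13e-08). Manf, a secreted protein of the ER that binds BiP, gave 9.55 and 9.34 against 7.79 and 7.75, a difference of 1.68 ± 0.12 (adjusted p = 1.47e-11). Pdia6, a protein disulfide isomerase, gave 10.66 and 10.32 against 8.85 and 8.79, a difference of 1.67 ± 0.11 (adjusted p = 2.42e-12). In these 3 genes both Smad3-/- arrays stood above both WT arrays and the difference was 1.92-fold for Hspa5, 3.2-fold for Manf and 3.19-fold for Pdia6. For Hspa5 the brighter of its other probe sets differed by less, with 10.62 and 10.79 on Smad3-/- arrays and 10.39 and 10.58 on WT arrays. Its dimmest probe set gave 9.51 and 9.64 against 8.54 and 8.60. Creld2, an ER protein induced by stress, gave 8.00 and 8.16 on Smad3-/- arrays and 6.81 and 6.53 on WT arrays (1.42 ± 0.14). Sdf2l1, a partner of BiP, gave 8.64 and 8.35 against 7.42 and 7.02 (1.28 ± 0.14). The groups did not overlap in either. The disulfide isomerases Pdia4 (1.15 ± 0.13) and Pdia3 (1.01 ± 0.14), the lectin chaperone Calr (0.97 ± 0.11) and the HSP90 of the ER, Hsp90b1 (0.93 ± 0.10), also rose. Hyou1 (0.56), Dnajc3 (0.48), Canx (0.47) and Dnajb9 (0.35) rose by less, and P4hb (0.23) and Dnajb11 (0.15) did not pass the test. The calls of Dnajb9 and Dnajc3 were lost without WT regular diet array b. Epididymal markers moved with these genes: 11 of 12 were higher on the Smad3-/- arrays (median difference 6.24), among them Lcn5 (8.89) and Gpx5 (7.00). Smooth muscle and pericyte markers were lower in 7 of 8 and fat cell markers in 9 of 10, while brown or beige fat markers were higher in 7 of 10, germ cell markers in 6 of 10 and markers of mammary and other epithelium in 7 of 14. The gap between 3′ and 5′ probe sets, a sign of RNA quality, was 0.28 and 0.41 on Smad3-/- arrays and 0.12 and 0.14 on WT arrays for Gapdh, and 0.96 and 1.12 against 0.80 and 0.77 for Actb. Their part in the result was not tested.

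Under the high fat diet the chaperones were lower in Smad3-/- than in WT mice, in 9 of 15 genes with none higher (6.05% and 4.74% of all genes). The median difference was -0.56. Hspa5 gave 10.14 and 10.33 on Smad3-/- arrays and 11.27 and 11.36 on WT arrays (-1.08 ± 0.10, adjusted p = 2.76e-09). Manf gave 7.41 and 7.73 against 8.66 and 8.96 (-1.24 ± 0.12, adjusted p = 1.84e-08). Pdia6 gave 9.15 and 9.30 against 10.05 and 10.08 (-0.84 ± 0.11, adjusted p = 3.38e-06). The groups did not overlap in these genes, and the fall was 2.11-fold for Hspa5 and 2.37-fold for Manf. For Hspa5 the brighter of its other probe sets differed by less, with 10.43 and 10.40 on Smad3-/- arrays and 10.64 and 10.57 on WT arrays. Its dimmest probe set gave 8.25 and 8.44 against 9.03 and 9.27. Pdia3 gave 8.43 and 9.12 on Smad3-/- arrays and 9.52 and 9.74 on WT arrays (-0.86 ± 0.14), and its 2 Smad3-/- arrays differed by 0.69, the largest gap between arrays of a group among the 34 genes. P4hb (-0.60 ± 0.10), Creld2 (-0.58 ± 0.14), Canx (-0.56 ± 0.10), Hsp90b1 (-0.56 ± 0.10) and Dnajc3 (-0.40 ± 0.12) also fell. The calls of Creld2 and Dnajc3 were lost without Smad3-/- high fat array a or WT high fat array b, and that of Dnajc3 also without Smad3-/- high fat array b. Calr (-0.28), Pdia4 (-0.38), Hyou1 (-0.24), Sdf2l1 (-0.22), Dnajb11 (-0.18) and Dnajb9 (0.17) were not called. 8 of the 13 chaperones that rose in Smad3-/- mice under the regular diet fell under the high fat diet: Hspa5, Hsp90b1, Canx, Pdia3, Pdia6, Manf, Creld2 and Dnajc3. On these arrays 14 of 14 skeletal muscle markers were higher in Smad3-/- mice (median 4.36), as were 8 of 10 brown or beige fat markers and 7 of 8 smooth muscle and pericyte markers. Lower were 8 of 14 macrophage markers, 7 of 10 germ cell markers, 6 of 14 markers of mammary and other epithelium and 4 of 12 epididymal markers. The part of these lists in the result was not tested.

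**Figure D2:**
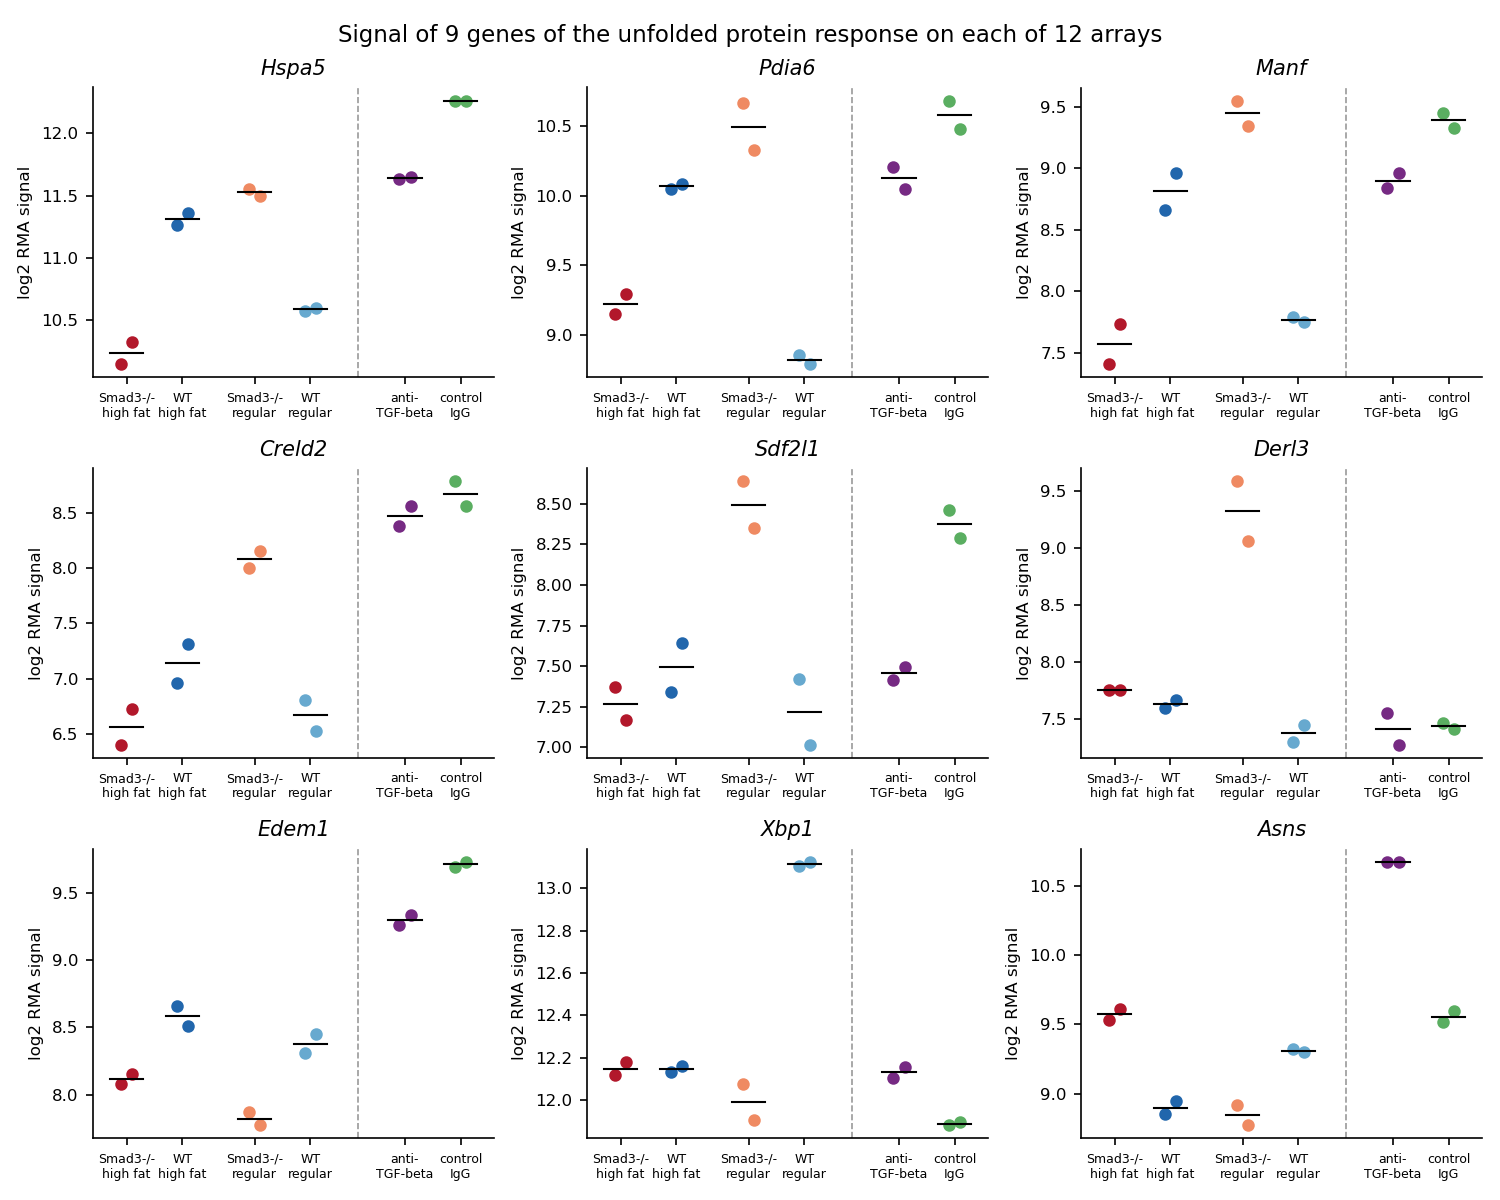
Log2 RMA signal (y axis) of 9 of the genes on each of the 12 arrays (points, arrays a and b) by group (x axis), with the group mean as a line and a dashed line between the 2 experiments, whose levels are not compared. Hspa5, Pdia6 and Manf are highest in Smad3-/- mice on the regular diet and WT mice on the high fat diet, Derl3 stands out in Smad3-/- mice on the regular diet alone, and Xbp1 in WT mice on the regular diet alone.

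The high fat diet moved the chaperones in opposite directions in the 2 genotypes, as the plot of the diet effect by genotype shows. In Smad3-/- mice 13 of 15 fell and none rose (5.82% and 11.5% of all genes, median -1.07), with Manf at -1.88 ± 0.12, Creld2 at -1.52 ± 0.14, Pdia3 at -1.38 ± 0.14 and Hspa5 at -1.29 ± 0.10. In WT mice 8 of 15 rose and none fell (4.69% and 6.11% of all genes, median 0.44), with Pdia6 at 1.25 ± 0.11, Manf at 1.04 ± 0.12, Hspa5 at 0.73 ± 0.10 and Canx at 0.65 ± 0.10. The difference between the diet effects was tested by the interaction term and passed in 13 of 15, from -2.92 ± 0.18 for Manf and -2.52 ± 0.16 for Pdia6 to -0.80 ± 0.16 for Hyou1. Over all genes 6.77% were called lower. These 13 calls held without each of the 8 arrays in turn. The second, dimmer probe set of Pdia6 did not show the difference. It gave 7.15 and 7.20 in Smad3-/- mice and 7.07 and 6.94 in WT mice on the high fat diet. On the regular diet it gave 7.07 and 7.21 against 6.70 and 7.23. Of 46 other probe sets of the listed genes, 37 had the direction of the one used in the interaction. P4hb (0.01), Dnajc3 (-0.06), Hsp90b1 (0.23) and Sdf2l1 (0.27) were among those whose diet effect in WT mice did not pass the test, while all 4 fell in Smad3-/- mice. The WT calls of Calr, Pdia3, Pdia4 and Creld2 were each lost without at least 1 array, Calr without WT regular diet array a or WT high fat array b, Pdia3 and Creld2 without WT regular diet array b or WT high fat array b, and Pdia4 without WT regular diet array b or WT high fat array a. In the fit that averaged the probe sets of every gene, Pdia3 (0.24), Pdia4 (0.34) and Creld2 (0.47) were not called in WT mice, nor were Canx (-0.21) and Hyou1 (-0.23) in Smad3-/- mice, nor Hyou1 in the interaction (-0.32). The Smad3-/- call of Canx was also lost without Smad3-/- high fat array a or Smad3-/- regular diet array a. The mean of the 15 genes gave 8.64 and 8.79 in Smad3-/- mice on the high fat diet, 9.18 and 9.30 in WT mice on the high fat diet, 9.73 and 9.65 in Smad3-/- mice on the regular diet and 8.84 and 8.77 in WT mice on the regular diet. The groups that overlap in this mean are Smad3-/- mice on the high fat diet and WT mice on the regular diet, and the others do not. Epididymal markers had the same 2 groups on top, in the same order. Their means were 6.38 and 6.52 in Smad3-/- mice and 7.25 and 7.27 in WT mice on the high fat diet. On the regular diet they were 10.72 and 10.72 in Smad3-/- mice and 5.61 and 5.51 in WT mice. The markers of mammary and other epithelium had the whole order of groups of the chaperone mean, with 7.31 and 7.29 in Smad3-/- mice and 7.79 and 7.88 in WT mice on the high fat diet, and 8.11 and 8.19 in Smad3-/- mice and 7.52 and 7.54 in WT mice on the regular diet. Their interaction was called lower in 6 of 14, among them Krt18 (-3.75), Cldn7 (-2.84), Krt8 (-2.72), Cldn3 (-2.48) and Cdh1 (-2.30). In Smad3-/- mice the high fat diet also came with higher signal of 14 of 14 skeletal muscle markers and 9 of 10 fat cell markers. Most epididymal markers were called lower there and none higher, with Lcn8 at -8.74 and Gpx5 at -6.88. Markers of mammary and other epithelium were called lower or not at all, with Krt19 at -1.98. In WT mice the high fat diet came with higher signal of 7 of 10 germ cell markers and lower signal of 8 of 8 smooth muscle and pericyte markers. Epididymal markers were called higher there or not at all, with Cuzd1 at 6.65 and Adam7 at 5.02. Of the epithelial markers Krt18 (1.90) rose most, and Krt19 alone was called lower (-2.45). The gap between 3′ and 5′ probe sets in WT mice was 0.99 and 0.96 on the high fat diet against 0.80 and 0.77 on the regular diet for Actb. For Gapdh it was 0.36 and 0.50 against 0.12 and 0.14. The part of these lists and of RNA quality in the diet effects was not tested.

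**Figure D3:**
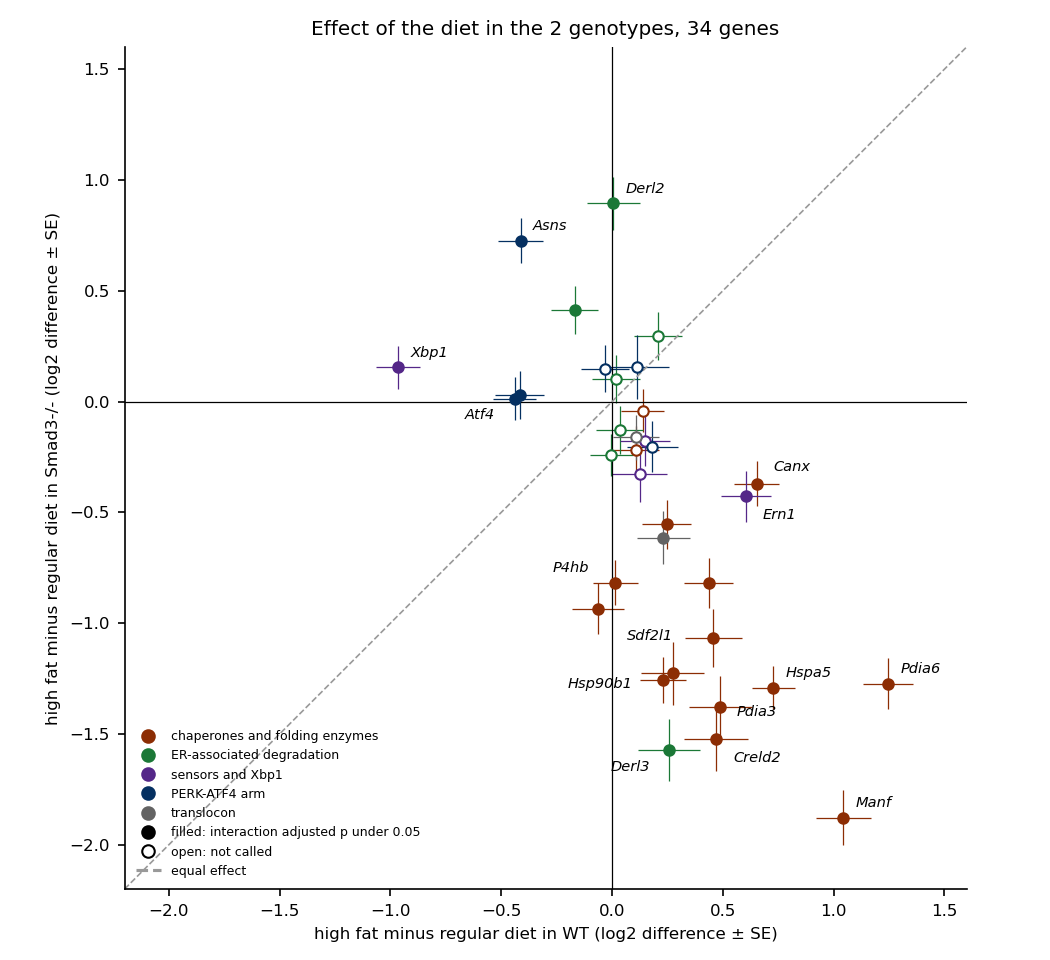
Effect of the high fat diet (high fat minus regular, log2 difference with its standard error) in Smad3-/- mice (y axis) against that in WT mice (x axis) for the 34 genes, coloured by role. Filled points passed limma's interaction test, and the dashed line marks equal effects. The chaperones lie below 0 on the y axis and mostly right of 0 on the x axis, and Xbp1 and Asns lie on the other side.

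The genes of ER-associated degradation did not move as a group. Under the regular diet 1 of 7 was higher and 4 were lower in Smad3-/- than in WT mice (8.4% and 15.6% of all genes). Derl3, a derlin of the channel that carries misfolded proteins out of the ER, gave 9.59 and 9.06 on Smad3-/- arrays and 7.30 and 7.45 on WT arrays (1.95 ± 0.14, 3.87-fold, adjusted p = 6.76e-12). The other groups of that experiment gave 7.76 and 7.75 (Smad3-/- on the high fat diet) and 7.60 and 7.67 (WT on the high fat diet), so that the Smad3-/- arrays of the regular diet alone lay above 9. Its relatives moved the other way. Derl2 gave 7.46 and 7.64 on Smad3-/- arrays and 8.50 and 8.45 on WT arrays (-0.93 ± 0.12, adjusted p = 4.54e-07), and Derl1 gave 9.35 and 9.04 against 9.68 and 9.74 (-0.52 ± 0.11). Both were also higher on the high fat than on the regular diet in Smad3-/- mice, Derl2 by 0.89 ± 0.12 and Derl1 by 0.41 ± 0.11, the call of Derl1 being lost without Smad3-/- high fat array b or Smad3-/- regular diet array b. The second, dimmer probe set of Derl2 did not show the fall (0.07 on the regular diet), and with the mean of both the interaction was not called (0.26), while all 4 probe sets of Derl1 were lower, from -0.52 to -0.96. Edem1, a lectin that hands misfolded glycoproteins to degradation, gave 7.87 and 7.77 on Smad3-/- arrays and 8.31 and 8.45 on WT arrays under the regular diet (-0.56 ± 0.11), and 8.08 and 8.16 against 8.66 and 8.51 under the high fat diet (-0.47 ± 0.11). It was the only member called lower in Smad3-/- mice on both diets, and its call on the high fat diet was lost without WT high fat array a or Smad3-/- high fat array a. Sel1l, the adaptor of the degradation ligase, was lower in Smad3-/- mice under the regular diet (-0.39 ± 0.11), a call that was lost without WT regular diet array a or Smad3-/- regular diet array b and that its 5 probe sets did not share (-0.65 to 0.33, with a mean of -0.23 that was not called). The ligase itself, Syvn1 (0.00), and Herpud1 (0.13) were called in none of the comparisons from their brightest probe sets, and in the fit on averaged probe sets Herpud1 was lower on the high fat diet in Smad3-/- mice (-0.38, adjusted p = 0.00658).

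Of the 4 genes of the sensors and Xbp1, Xbp1 differed most on the regular diet, where the WT arrays stood above all others. Xbp1, the transcription factor whose mRNA IRE1 splices, gave 12.08 and 11.91 on Smad3-/- arrays and 13.10 and 13.13 on WT arrays under the regular diet (-1.12 ± 0.10, adjusted p = 3.83e-10). Under the high fat diet it gave 12.12 and 12.18 on Smad3-/- arrays and 12.13 and 12.16 on WT arrays (-0.00 ± 0.10). Both WT arrays of the regular diet lay above 13 and the other 6 arrays between 11.91 and 12.18. The same 2 arrays enter the diet effect in WT mice, where the difference of Xbp1 was -0.97 ± 0.10. All 4 Xbp1 probe sets were lower in Smad3-/- mice under the regular diet, from -0.79 to -1.76. Spliced and unspliced Xbp1 mRNA were not told apart here. These 2 arrays also had the highest smooth muscle and pericyte signal and the smallest gap between 3′ and 5′ probe sets of Gapdh, a sign of RNA quality (0.12 and 0.14, against 0.28 to 0.50 on the other 6 arrays), and the part of either in the result was not tested. Ern1, which encodes IRE1, gave 8.40 and 8.31 on Smad3-/- arrays and 7.65 and 7.47 on WT arrays under the regular diet (0.80 ± 0.11), and rose with the high fat diet in WT mice (0.61 ± 0.11). Its 4 other probe sets did not show this, and with the mean of its probe sets no Ern1 call held (0.20, adjusted p = 0.166 on the regular diet). Eif2ak3, which encodes PERK, was lower in Smad3-/- mice under the high fat diet (-0.39 ± 0.12), a call lost without any 1 of the 4 arrays and with the mean of its probe sets (-0.08), and Atf6 was called in none of the comparisons.

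The PERK-ATF4 arm was led by Asns, which had the largest difference of its 6 genes on either diet. Asns, asparagine synthetase, gave 8.92 and 8.77 on Smad3-/- arrays and 9.32 and 9.30 on WT arrays under the regular diet (-0.46 ± 0.10, adjusted p = 0.00078), and 9.53 and 9.61 against 8.85 and 8.95 under the high fat diet (0.67 ± 0.10, adjusted p = 1.67e-05). It was lower in Smad3-/- mice on one diet and higher on the other, the reverse of Hspa5, and the groups did not overlap on either diet. The interaction term was 1.14 ± 0.14 (adjusted p = 5.12e-07). A second Asns probe set went the same way (-0.92 and 0.60). Atf4, the factor of this arm, gave 10.41 and 10.41 on Smad3-/- arrays and 10.80 and 10.64 on WT arrays under the regular diet (-0.31 ± 0.10). That call was lost without WT regular diet array a or Smad3-/- regular diet array b, and the difference was 0.03 after a further quantile normalization. In WT mice Atf4 (-0.44 ± 0.10), Asns (-0.41 ± 0.10) and Ppp1r15a (-0.42 ± 0.11), which encodes the phosphatase subunit that ends the PERK signal, were lower on the high fat diet. Each of these calls was lost without WT regular diet array a, those of Asns and Ppp1r15a also without WT high fat array a, and that of Ppp1r15a without WT regular diet array b. Of 12 immediate early genes, which respond to handling of a tissue, 8 were lower in the same comparison, among them Egr1 (-1.85) and Dusp1 (-1.81), and the list means were 7.50 and 7.56 in WT mice on the high fat diet and 8.32 and 8.20 in WT mice on the regular diet. In Smad3-/- against WT mice on the regular diet 8 of these 12 were lower too, and their part in the values of Atf4, Asns and Ppp1r15a was not tested. Ddit3 (CHOP), a factor of stress-induced cell death, was 0.31 ± 0.11 higher in Smad3-/- mice under the regular diet, a call that was lost without any 1 of the 4 arrays and with the replicate block (adjusted p = 0.0527). Chac1 and Trib3, targets of ATF4, were called in none of these comparisons from their brightest probe sets. In the fit on averaged probe sets Trib3 was higher on the high fat diet in WT mice (0.33, adjusted p = 0.0226), and Ppp1r15a was lower in Smad3-/- mice on the regular diet (-0.29, adjusted p = 0.0236). Both translocon genes, Sec61b (-0.58 ± 0.12), a channel subunit, and Ssr1 (-0.35 ± 0.10), a subunit of the translocon-associated complex, were lower in Smad3-/- mice under the high fat diet, and both calls were lost without Smad3-/- high fat array a or WT high fat array b, that of Ssr1 also without Smad3-/- high fat array b and with the mean of its probe sets (-0.23).

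In obese mice given the antibody against TGF-beta, 8 of 15 chaperones were lower than with control IgG and none was higher (12.6% and 11.7% of all genes). The median difference was -0.29. Sdf2l1 gave 7.42 and 7.49 with the antibody and 8.46 and 8.29 with IgG (-0.92 ± 0.14, adjusted p = 1.36e-05). Hspa5 gave 11.63 and 11.65 against 12.26 and 12.26 (-0.62 ± 0.10, adjusted p = 1.58e-05). Calr gave 11.73 and 11.69 against 12.13 and 12.20 (-0.46 ± 0.11, adjusted p = 0.00279). From the brightest probe sets the groups did not overlap in these 3 genes, whose calls held without each array in turn. The probe sets of Hspa5 did not all show the fall. The brighter of its other probe sets gave 9.42 and 9.20 with the antibody and 9.05 and 9.59 with IgG, and the groups overlapped. Its dimmest probe set was lower with the antibody, at 10.05 and 10.13 against 10.40 and 10.40. The reason for this difference between probe sets was not tested. Manf (-0.49 ± 0.12), Pdia3 (-0.46 ± 0.14), Pdia6 (-0.45 ± 0.11), Hsp90b1 (-0.39 ± 0.10) and P4hb (-0.29 ± 0.10) also fell, and each of these calls was lost without at least 1 of the 4 arrays: Manf and Pdia6 without IgG array a, Manf without antibody array a, Pdia6 without antibody array b, Pdia3 without IgG array a, IgG array b or antibody array a, Hsp90b1 without IgG array b or antibody array b, and P4hb without any 1 of the 4. No chaperone was called in a test for a difference of at least 1.5-fold. Creld2 (-0.20), Pdia4 (-0.05), Dnajb9 (-0.04) and Dnajc3 (-0.01) were not called, nor were Hyou1 (-0.23), Canx (-0.25) and Dnajb11 (-0.22), of which Canx (-0.43, adjusted p = 0.00417) and Dnajb11 (-0.22, adjusted p = 0.0437) were called in the fit on averaged probe sets. The antibody and the high fat genotype comparison share no arrays: 8 genes fell in both, of 13 that fell in Smad3-/- mice on the high fat diet and 10 that fell with the antibody, namely Hspa5, Hsp90b1, Pdia3, Pdia6, P4hb, Manf, Edem1 and Sec61b, and Asns rose in both. These 8 are 61.5% of the 13 and 80% of the 10. Of all 18194 genes 422 fell in both, 38.4% of those that fell in Smad3-/- mice on the high fat diet and 18.4% of those that fell with the antibody, and 559 rose in both. Skeletal muscle and brown or beige fat markers were higher in both comparisons, and their part in the shared calls was not tested.

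Outside the chaperones, Asns, Chac1, Derl1 and Ern1 rose with the antibody and Sec61b and Edem1 fell. Asns gave 10.68 and 10.67 with the antibody and 9.52 and 9.59 with IgG (1.12 ± 0.10, 2.17-fold, adjusted p = 1.28e-09), and its second probe set rose too (0.96). Chac1, which degrades glutathione, gave 9.46 and 9.49 against 8.97 and 8.94 (0.52 ± 0.11, adjusted p = 0.000496). Both antibody arrays lay above both IgG arrays in each. Atf4 (0.08), Trib3 (0.15), Ddit3 (-0.10) and Ppp1r15a (-0.01) were not called. Sec61b gave 10.37 and 10.40 with the antibody and 11.01 and 11.08 with IgG (-0.66 ± 0.12, adjusted p = 0.000125). Of the degradation genes, Derl1 rose (11.41 and 11.39 against 10.81 and 10.93, 0.53 ± 0.11), and its 3 other probe sets, at 0.20 to 0.37, did not pass the test. Edem1 fell (9.26 and 9.33 against 9.69 and 9.73, -0.42 ± 0.11), with its second probe set at -0.86, and its call was lost without antibody array a. Sel1l (-0.15) was not called from its brightest probe set but was lower in the fit on averaged probe sets (-0.30, adjusted p = 0.0115). Derl3, which had risen in Smad3-/- mice on the regular diet, gave 7.55 and 7.27 with the antibody and 7.46 and 7.41 with IgG, and the groups overlapped. Ern1 rose by 0.36 ± 0.11, a call lost without IgG array a, IgG array b or antibody array b and with the mean of its probe sets, and Xbp1 (0.24 ± 0.10, adjusted p = 0.0749) was not called from its brightest probe set but was with the mean of its 4 probe sets (0.27, adjusted p = 0.0365). Macrophage markers moved with these results: 13 of 14 were lower with the antibody (means 9.23 and 9.30, against 11.01 and 10.96 with IgG), while 14 of 14 skeletal muscle markers and 9 of 10 brown or beige fat markers were higher. Of the 12 immediate early genes 10 were lower (9.08 and 9.04 with the antibody, against 9.98 and 9.86 with IgG). Of the B cell and plasma cell markers 7 of 10 were higher and 3 lower (7.00 and 6.86 against 6.24 and 6.34). The gap between 3′ and 5′ probe sets of Actb, a sign of RNA quality, was 0.87 and 0.75 with the antibody and 0.61 and 0.67 with IgG. Their part in the result was not tested.

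**Figure D4:**
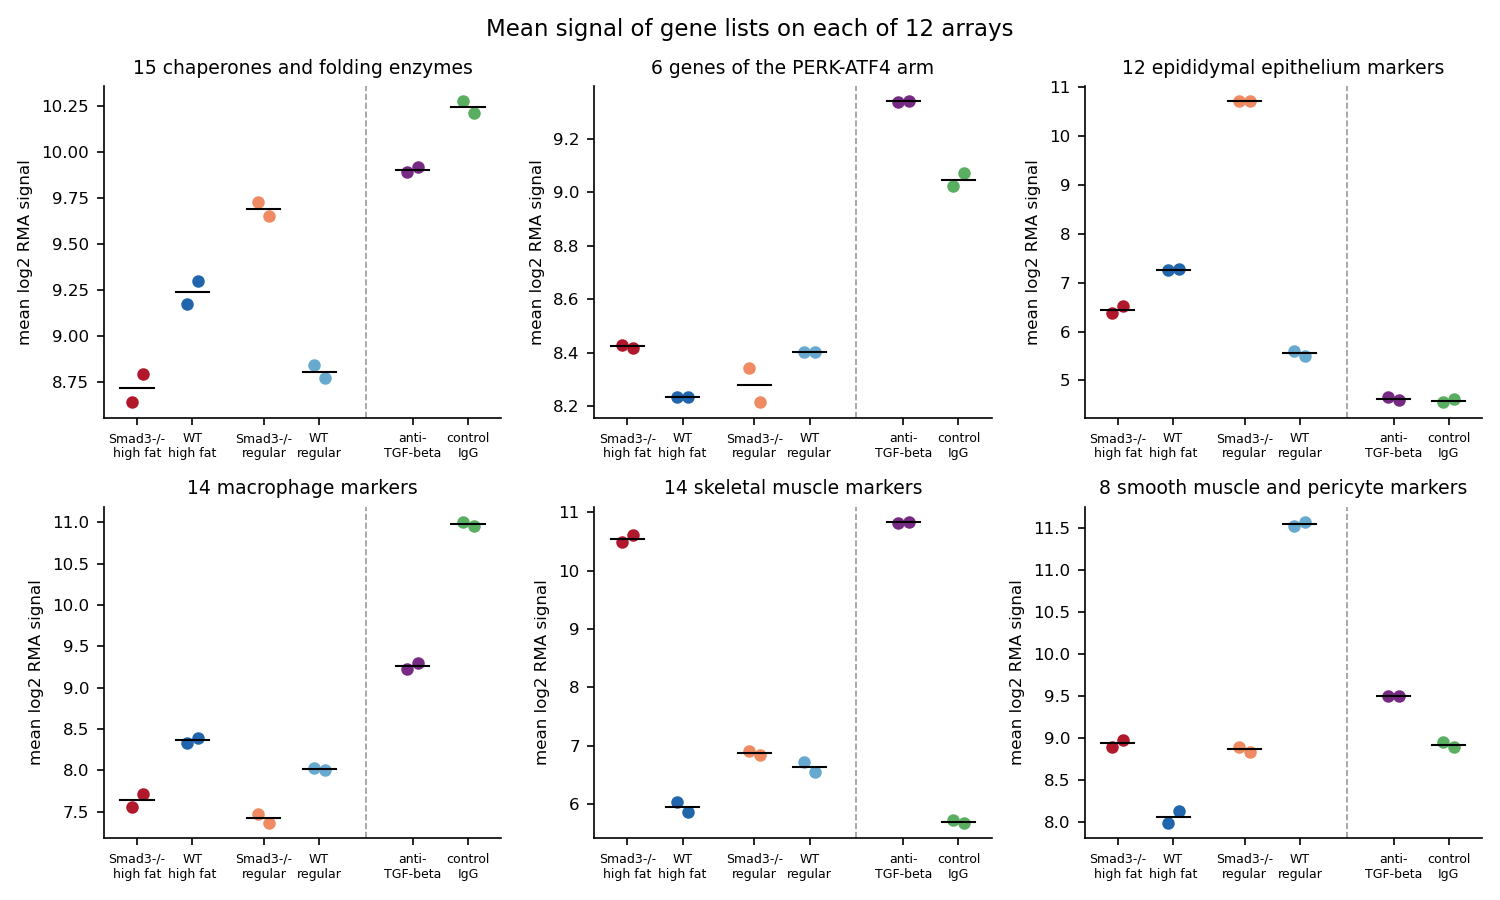
Mean log2 RMA signal (y axis) of gene lists on each array (points, arrays a and b) by group (x axis), with the group mean as a line and a dashed line between the 2 experiments. Epididymal markers stand apart in Smad3-/- mice on the regular diet, skeletal muscle markers in Smad3-/- mice on the high fat diet and with the antibody, and smooth muscle markers in WT mice on the regular diet.

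Genes with an exact ERSE or ERSE-II in the promoter window were set beside those without one among the 13 chaperones that have a window. The 8 with an element and the 5 without had median differences of 0.93 and 1.01 in Smad3-/- against WT mice on the regular diet, -0.56 and -0.38 on the high fat diet, and -0.32 and -0.29 with the antibody. As a description, both sets of chaperones moved to the same side in each comparison. Outside the chaperones, Derl3 rose on the regular diet and Syvn1 and Herpud1 did not pass the test.

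Other genes of the ER were read from lists of related steps, in which at most the 2 highest and 2 lowest called genes of a comparison are named. Over all genes, 8.4% were called higher and 15.6% lower in Smad3-/- mice on the regular diet. The shares were 4.74% and 6.05% on the high fat diet and 11.7% and 12.6% with the antibody. They stand beside the counts here and in the next paragraph. Of 32 further folding enzymes, 7 were higher and 6 lower in Smad3-/- than in WT mice on the regular diet. Dnajc10, a reductase that aids degradation, rose by 2.35 ± 0.10 and Pdia5 by 1.56 ± 0.14, and Serpinh1, the collagen chaperone HSP47 (-1.74 ± 0.10), and Selenof (-0.87 ± 0.11) fell. On the high fat diet 1 was higher and 4 were lower, with Dnajc10 at -1.09 ± 0.10 and Uggt1, the sensor of glycoprotein folding, at -0.85 ± 0.11. Dnajc10 gave 9.60 and 9.72 in Smad3-/- mice and 10.71 and 10.79 in WT mice on the high fat diet, and 11.00 and 10.89 against 8.59 and 8.61 on the regular diet, so that, as for Hspa5, Smad3-/- mice on the regular diet stood highest and WT mice on the high fat diet next. With the antibody 9 of 32 fell, and the lowest were Ppic (-1.09 ± 0.12) and Serpinh1 (-1.05 ± 0.10).

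Of 28 genes of the translocon, signal peptidase and oligosaccharyltransferase, 10 were higher and 4 lower in Smad3-/- mice on the regular diet, and none was higher and 13 were lower on the high fat diet. Sec11c, a catalytic subunit of signal peptidase, differed most, by 1.90 ± 0.13 and -1.31 ± 0.13, and Rpn1, a subunit of oligosaccharyltransferase, was at -0.66 ± 0.13 on the high fat diet. With the antibody 1 rose and 7 fell, with Sec11c at -0.50 ± 0.13. Of 32 genes of transport between the ER and the Golgi, 2 rose and 9 fell in Smad3-/- mice on the regular diet, and none rose and 12 fell on the high fat diet, with Tmed9 at -0.69 ± 0.11 and the COPII subunit Sec23b at -0.56 ± 0.11. With the antibody 1 rose and 10 fell, the lowest Kdelr3 (-0.81 ± 0.14), a receptor that returns chaperones to the ER. Of 28 further degradation genes, 1 rose and 13 fell in Smad3-/- mice on the regular diet, with Erlec1 at 0.87 ± 0.12 and the conjugating enzyme Ube2g2 at -1.26 ± 0.10. On the high fat diet 0 of 28 were called by limma, with 4 at an unadjusted p under 0.05, and with the antibody 1, Erlec1 (-0.37 ± 0.12). The membrane-bound factor Creb3l2 was higher in Smad3-/- mice on the regular diet (0.79 ± 0.11) and lower on the high fat diet (-0.86 ± 0.11). Of 22 genes of that list 2 rose and 6 fell with the antibody. Ppp1r15b, the constitutive counterpart of Ppp1r15a, was at 0.93 ± 0.12 and Wfs1, the ER protein of Wolfram syndrome, at -0.82 ± 0.11.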

How the data were processed

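Total RNA (6 ug per array, per the labels) was hybridised to 12 Affymetrix arrays. The deposited values are log2 signals of 45101 probe sets made with RMA in Partek, per the submitters' processing notes, whose versions the sources used here do not give. Levels were compared within an experiment only, since array medians differ. Probe sets were named from the platform annotation: 34958 have 1 gene, 932 several and 9211 none. Each of 18194 genes was read from its brightest probe set over the 12 arrays. Differences were fitted with limma 3.58.1 in R 4.3.3 (group means, 12 arrays, eBayes with an intensity trend, 6 residual degrees of freedom, two-sided, Benjamini-Hochberg over all genes) and checked on simulated data. The prior degrees of freedom were 20.4, so the spread used for a gene rests more on genes of like signal than on its own arrays. The number of arrays, 2 a group, limits the precision. The 34 genes, the lists and the markers were chosen with earlier results of these data known. Named genes are the 34 in every comparison and, from each other list, at most the 2 highest and 2 lowest called. Replicate letters were not found to pair arrays: of 15 correlations of same-letter deviations, 2 passed 0.1 (range -0.16 to 0.17). Alternatives were other filters, normalizations, probe set rules, weights and thresholds, a replicate block and leaving out each array. Promoters are RefSeq's (GRCm38.p6).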

Additional observations from a re-analysis of the deposited data

Results flagged for a closer look

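The effect of the high fat diet differed between the Smad3-/- and WT genotypes in 22 of the 34 genes, by the test of that difference in one fit (limma's interaction term, effect in Smad3-/- minus effect in WT, adjusted p under 0.05 over all genes). Over all genes 6.77% were called lower and 12% higher by this term. Among the chaperones the difference was -2.92 for Manf, -2.52 for Pdia6, -2.02 for Hspa5, -1.99 for Creld2, -1.87 for Pdia3 and -1.52 for Pdia4. It was -1.50 for Sdf2l1, -1.49 for Hsp90b1, -1.25 for Calr, -1.02 for Canx, -0.87 for Dnajc3, -0.83 for P4hb and -0.80 for Hyou1. Sec61b (-0.85), Ern1 (-1.03) and Derl3 (-1.83) were on the same side. Asns (1.14), Xbp1 (1.12), Derl2 (0.89), Derl1 (0.58), Atf4 (0.45) and Ppp1r15a (0.45) were on the other. The call of Atf4 was lost without Smad3-/- high fat array a, WT high fat array a or WT regular diet array a, and that of Ppp1r15a held only without WT high fat array b or Smad3-/- regular diet array a. The terms rest on all 4 groups, and markers of other cells stand apart in each: skeletal muscle in Smad3-/- mice on the high fat diet (14 of 14 interaction terms higher), germ cells in WT mice on the high fat diet (7 of 10 lower), epididymis in Smad3-/- mice on the regular diet and smooth muscle in WT mice on the regular diet. Most epididymal markers were called lower in these terms and none higher, down to -12.61 for Lcn5 and -9.05 for Lcn8. Every smooth muscle and pericyte marker was called higher, up to 5.28 for Cnn1. Markers of mammary and other epithelium were called lower in 6 of 14 terms, down to -3.75 for Krt18. The part of these lists was not tested.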

How the results depend on the processing

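Results are given in the order genotype on the regular diet, genotype on the high fat diet, diet in WT, diet in Smad3-/-, interaction and antibody. Testing for a difference of at least 1.5-fold called 10, 2, 3, 9, 13 and 1 of the 34 genes, and 941, 274, 335, 500, 941 and 663 of all genes. It called 8, 2, 2 and 8 chaperones in the first 4 and 0 with the antibody. Averaging the probe sets of each gene called 5 chaperones for the diet in WT. After a further quantile normalization 2 genes called before or after it changed sign on the regular diet, Atf4 (0.028, adjusted p = 0.868) and Ssr1 (0.24, adjusted p = 0.0269). Signs of genes called in neither fit were not counted. The members split into 21 higher and 5 lower on the regular diet and 4 and 22 in the interaction. All genes split into 2360 and 2668 on the regular diet and 2018 and 1595 for the diet in Smad3-/-. Leaving out 1 array gave 8 to 12 members for the genotype on the high fat diet and 9 to 10 with the antibody. Chaperones ranged over 5 to 7 for the diet in WT and 4 to 5 with the antibody. All genes called numbered 1296 to 1679 for the diet in WT and 2035 to 2710 for the diet in Smad3-/-, with the lowest counts without WT regular diet array a and Smad3-/- high fat array b. Chaperones numbered 5 for the diet in WT without WT high fat array b or WT regular diet array b, and with the antibody 4 without IgG array a and 5 without each of the others. With the replicate block 22, 14, 13, 19, 21 and 13 members were called. It ended the calls of Ddit3 on the regular diet (adjusted p = 0.0527), Ppp1r15a in the interaction (0.0513) and P4hb with the antibody (0.0507), and changed no other call of the 34. The cause of these changes was not tested, except that a minimum fold leaves fewer calls by construction. Fits without the Smad3-/- or the WT arrays of the regular diet, chosen after seeing the data, called 14 and 14 members on the high fat diet and 15 and 13 with the antibody. Limits are 2 arrays a group, of unknown origin, an unnamed tissue, strain confounded with genotype, and no separate reading of spliced Xbp1.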

Other observations

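Heat shock genes of the cytosol and mitochondria, which answer unfolded proteins outside the ER, were read beside the ER chaperones. Of 28 measured, 1 was higher and 14 were lower (8.4% and 15.6% of all genes) in Smad3-/- than in WT mice on the regular diet, where the ER chaperones rose. The small heat shock genes Cryab (-3.00 ± 0.14) and Hspb8 (-2.30 ± 0.11) fell, and Fkbp4 (0.85 ± 0.12), a co-chaperone of HSP90, rose. Cryab gave 7.07 and 6.62 on Smad3-/- arrays and 9.93 and 9.76 on WT arrays. Smooth muscle and pericyte markers averaged 8.89 and 8.84 on those Smad3-/- arrays and 11.53 and 11.57 on those WT arrays. On the high fat diet 4 were higher and 8 lower in Smad3-/- mice (4.74% and 6.05% of all genes). The highest were the mitochondrial Hspa9 (0.81 ± 0.12) and Hspd1 (0.67 ± 0.11) and the lowest Hsp90aa1 (-0.88 ± 0.11) and Dnajb1 (-0.70 ± 0.10). With the antibody 6 of 28 rose and none fell (11.7% and 12.6% of all genes). Hspa1a, the inducible HSP70, gave 8.96 and 9.13 with the antibody and 7.05 and 7.09 with IgG (1.98 ± 0.12), and Hspa1b differed by 1.17 ± 0.11. These 2 genes are near-identical copies, and their probe sets may share transcripts. Skeletal muscle markers averaged 10.48 and 10.61 in Smad3-/- against 6.04 and 5.86 in WT mice on the high fat diet. With the antibody they averaged 10.82 and 10.84, against 5.72 and 5.67 with IgG. The part of either muscle list in the heat shock values was not tested.

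Targets of ATF4 and other amino acid genes were read beside Asns. Of 44 measured, 7 were higher and 17 lower in Smad3-/- mice on the regular diet (8.4% and 15.6% of all genes). The transporters Slc7a5 (2.31 ± 0.12) and Slc1a5 (-1.70 ± 0.11) were on opposite sides. Slc7a5 gave 10.24 and 10.30 on Smad3-/- arrays and 7.96 and 7.95 on WT arrays on the regular diet. On the high fat diet 5 were higher and 8 lower (4.74% and 6.05% of all genes). The factor Cebpb was highest (1.04 ± 0.13), and Cth (-1.04 ± 0.14), an enzyme of cysteine synthesis, was among the lower genes. With the antibody 5 rose and 8 fell (11.7% and 12.6% of all genes). The highest was Vegfa (0.57 ± 0.11) and the lowest Cth (-1.38 ± 0.14), while Atf3, a stress factor that is also an immediate early gene, was at -0.84 ± 0.12. The part in these values of the immediate early genes, of which 10 of 12 were lower with the antibody, was not tested.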
